A study of Tupaia belangeri with 15 samples.

Results

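The nuclei described here were 394 nuclei of tree shrew (TS) retina that carried at least 2 UMIs (unique molecular identifiers, each counting 1 captured RNA molecule) of DRD2, the dopamine D2 receptor gene, together with a gene of amacrine cells (ACs). They were chosen on measured values: of 119765 nuclei with more than 200 and fewer than 6000 detected genes and under 5% mitochondrial counts, the rule kept those with 2 or more DRD2 UMIs, at least 1 UMI of GAD1, GAD2, SLC6A9, TFAP2A or TFAP2B, and none of CHAT, TAC1, VIP, PDGFRA, SLC17A6, SLC17A8, RBPMS and ARR3. The same rule without DRD2 gave 19532 AC-like nuclei, so the DRD2-positive nuclei were drawn from these. The name AC-like stands for this rule only, since some of these nuclei carried markers of other cell classes, as given below. The study sequenced the RNA of single nuclei from 15 frozen retinas of TS (Tupaia belangeri), 5 each from animals labelled Infancy, Mature and Senile, with no strain, genotype or treatment in the labels. The study's methods place the Senile animals at another institute than the younger ones, so age and origin cannot be told apart. The labels name 15 samples and no further pairing, so the p-values below measure the spread between these retinas.

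ACs are interneurons of the inner retina that shape the signals passed from bipolar cells (BCs) to ganglion cells, and most of them release glycine or GABA. Dopamine, made by a sparse wide-field AC type, sets the retina's state of light adaptation. The D2 receptor couples to inhibitory G proteins and lowers cyclic AMP. It serves as an autoreceptor on dopamine-releasing cells and as a receptor of other retinal neurons, photoreceptors among them.

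The 394 nuclei were deeper than their surroundings, with a median of 5136.5 UMIs and 2128 genes against 2965 UMIs in AC-like nuclei and 2917 UMIs in all nuclei. Exactly 2 DRD2 UMIs were counted in 258 of them (65.5%), 3 in 86 (21.8%), and the highest count was 7 in 1 nucleus. Just outside the threshold lay 860 AC-like nuclei with 1 DRD2 UMI and a median of 3450.5 UMIs. Among AC-like nuclei with 0, 1, 2 and 3 DRD2 UMIs, the share with SLC6A9, the glial-type glycine transporter used by glycinergic ACs, was 45.6%, 54.3%, 57% and 53.5%. The share with ONECUT1, a transcription factor of horizontal cells (HCs), was 2.83%, 18%, 25.6% and 33.7%. Nuclei with a DRD2 UMI were thus richer in ONECUT1 on either side of the threshold. A further 440 nuclei with 2 or more DRD2 UMIs and an AC gene carried a gene the rule bars, most often the cone arrestin ARR3 (347 nuclei). Of the AC genes, SLC6A9 was found in 219 of the 394 nuclei (55.6%), TFAP2B in 184 (46.7%), TFAP2A in 103 (26.1%) and GAD1 in 1. GAD1 reached only 630 UMIs and GAD2 0 UMIs in all 119765 nuclei, so the GABA-synthesizing enzymes named hardly any nucleus in this annotation.

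DRD2 was counted at a low level in every class of nuclei, and of the classes examined its level was highest in nuclei with ONECUT1 or ONECUT2. Cones (2 or more ARR3 UMIs) and Müller glia (2 or more UMIs of RLBP1 or WIF1) served as the reference for low counts. A DRD2 UMI was found in 3.65% of 24382 cone nuclei (median 3705 UMIs) and in 4.44% of 9107 Müller nuclei (median 3513 UMIs), compared with 6.42% of the AC-like nuclei at their lower median depth of 2965 UMIs. The share was 9.25% in 19095 bipolar nuclei with CA10 and GRIK1li1 (median 2967 UMIs), 10.1% in 4233 glycinergic AC-like nuclei with 2 or more SLC6A9 UMIs (median 2473 UMIs), and 26.9% in 1378 nuclei with 2 or more UMIs of ONECUT1 or ONECUT2 and no ARR3 (median 5196.5 UMIs). Nuclei with 1500 or more UMIs were also thinned to 1500 UMIs each and shallower nuclei left out, which kept 22443 cone, 7604 Müller, 16417 AC-like, 14690 bipolar, 3361 glycinergic and 1327 ONECUT nuclei. In these the shares were 1.16% in cones, 1.53% in Müller glia, 3.58% in AC-like nuclei, 5.04% in bipolar nuclei, 6.87% in glycinergic nuclei and 13.5% in ONECUT nuclei. Over all nuclei of each class, DRD2 was measured at 10.1, 13, 26.4, 33.7, 45.1 and 77.7 CPM in the same order.

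By retina, summed DRD2 reached 3.26, 7.84 and 16.9 CPM (UMIs of the gene per 1000000 UMIs; lowest, median and highest retina) in cones and 6.25, 12.8 and 22.3 CPM in Müller glia. It reached 12, 24.7 and 39.9 CPM in AC-like nuclei, 23.9, 32.7 and 42.2 CPM in bipolar nuclei, 19, 46.1 and 88.2 CPM in glycinergic nuclei, and 32.6, 72.8 and 150 CPM in ONECUT nuclei. The ranges of neighbouring classes overlapped, but within a retina the order held against the reference. ONECUT nuclei exceeded cones in 15 of 15 retinas, by a median of 10.5-fold (2.41 to 22.3). Glycinergic nuclei exceeded them in 15 of 15 by a median of 4.88-fold (1.86 to 17.5), and exceeded Müller glia by 2.93-fold (1.83 to 6.2). For all AC-like nuclei the median ratio to cones was 2.99 (1.31 to 9.75). The cells of a retina share free RNA, and what it contributes to these low counts was not tested.

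**Figure D1:**
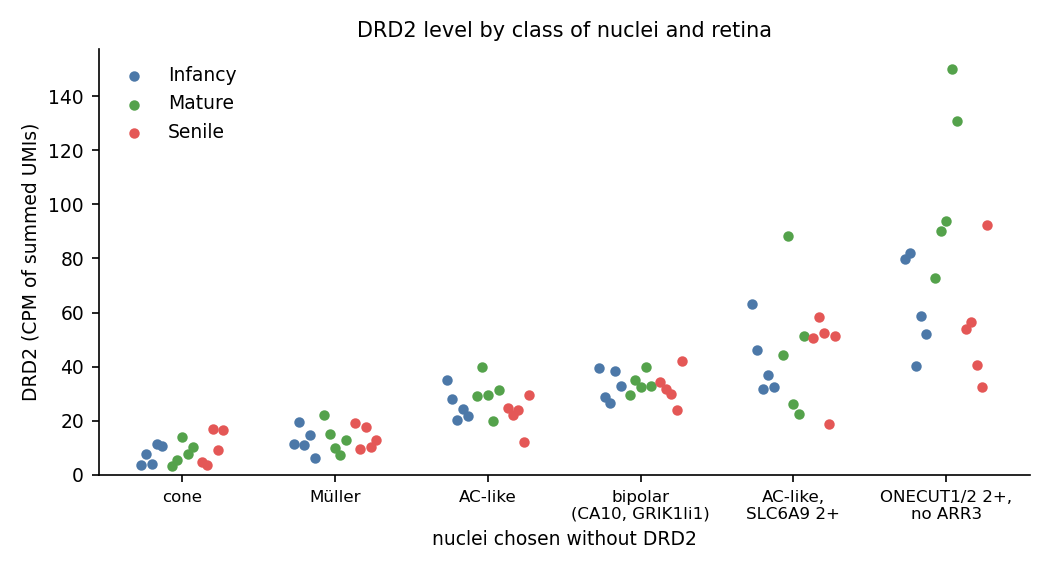
DRD2 level (CPM of summed UMIs, linear axis) in 6 classes of nuclei chosen without DRD2, 1 point per retina, coloured by stage. Cone and Müller nuclei lie lowest (3.26 to 22.3 CPM) and ONECUT nuclei highest (32.6 to 150 CPM).

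The label of amacrine cells held for part of the 394 nuclei only. Grouped by their expression without the 14 genes of the rule, they fell into 5 groups, which are described by their leading genes and are not tested against each other, since the same genes formed them. The number of groups depended on the setting: at a finer resolution (1 in place of 0.5) there were 8. The adjusted Rand index of the 2 partitions was 0.758, where 1 would mean identical groups. The 5 groups are used below. Groups 1 and 3, with 129 and 74 nuclei, had SLC6A9, which the rule used, and almost no ONECUT1. The other 3 groups carried HC or BC markers. The list of general AC markers, without the genes of the rule, did not set groups 1 and 3 apart: it summed to 4880 CPM in group 1, 3840 CPM in group 2, 4300 CPM in group 3, 2040 CPM in group 4 and 6770 CPM in group 5, with SLC32A1 at 0 in all. Group 4 (66 nuclei) had the highest share of doublet calls, 27.3% against 2.53% to 10.9% in the others.

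Group 1 (32.7% of the nuclei, found in 15 of 15 retinas) was led by BRINP3 at 1010 CPM against 56.9 CPM in the other DRD2-positive nuclei, with OLFM3, NECAB1 and the potassium channel gene KCNC2. SLC6A9 was found in 79.1% of its nuclei and PAX6, a transcription factor that ACs and HCs keep in the adult, in 93%, against 74.7%, 85.1%, 50% and 65.2% in groups 2 to 5. The transcription factor gene EBF1 was found in 68.2%, and TCF4 in 84.5% of its nuclei and 93.9% of those of group 4. Group 3 (18.8%, 14 retinas) was led by the GABA-A receptor subunit gene GABRB2 at 2020 CPM against 183 CPM. SLC6A9 and EBF1 were found in 100% of its nuclei, the muscarinic receptor gene CHRM2 in 58.1%, and ESR1, the estrogen receptor, reached 177 CPM against 5.58 CPM. TFAP2B was rare in it (4.05%). Both groups lacked ONECUT1 almost entirely (1.55% and 0%), and LHX1 had 0 UMIs in both.

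Group 2 (20.1%, 14 retinas) was led by MEGF11, a homotypic spacing receptor known from HCs and starburst ACs, at 1070 CPM against 12.4 CPM. ONECUT1 was found in 87.3% of its nuclei, ONECUT2 in 64.6%, NDRG1 in 62% and LHX1, a factor of axon-bearing HCs, in 26.6%, while SLC6A9 was found in 2.53%. Group 5 (11.7%, 12 retinas) was led by the laminin gene LAMA2 at 1110 CPM against 5.4 CPM. ONECUT1 was found in 93.5% of its nuclei, ISL1 in 73.9%, the calcium-binding protein gene CALB1 in 100% and the connexin gene GJA10 in 52.2%, with LHX1 at 0. Both groups entered mostly through TFAP2B, which HCs also express (89.9% and 97.8% of nuclei). The HC list without TFAP2B summed to 2400 CPM in group 2 and 1480 CPM in group 5, against 248 CPM in group 1 and 430 CPM in group 3. In group 2 all 7 listed HC genes were detected, in group 5 there were 6. OPRK1, the kappa opioid receptor gene, was found in 72.2% and 89.1% of the nuclei of groups 2 and 5, and in 1.55% and 0% of groups 1 and 3.

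Group 4 (16.8%, 15 retinas) was led by NTNG1, a netrin-related adhesion gene, at 2570 CPM against 101 CPM, followed by ERBB4. Of the BC genes, CA10 was found in 97% of its nuclei, GRIK1li1, the copy of GRIK1 that holds nearly all its counts, in 84.8%, and TRPM1, the cation channel of ON BCs, in 37.9%. The BC list summed to 10200 CPM in it, against 493 to 1880 CPM in the other 4 groups, while CABP5 was at 0 in all groups. SLC6A9 was found in 56.1% of its nuclei. The part of doublets and free RNA in this mixture was not tested. Each group held Infancy, Mature and Senile nuclei: group 1 made up 32.3%, 34.7% and 27.9% of the DRD2-positive nuclei of the respective stages, group 2 made up 17.3%, 21.2% and 22.1%, group 3 made up 22.6%, 18.1% and 13.2%, group 4 made up 16.5%, 15.5% and 20.6%, and group 5 made up 11.3%, 10.4% and 16.2%. These shares were not tested between stages.

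**Figure D2:**
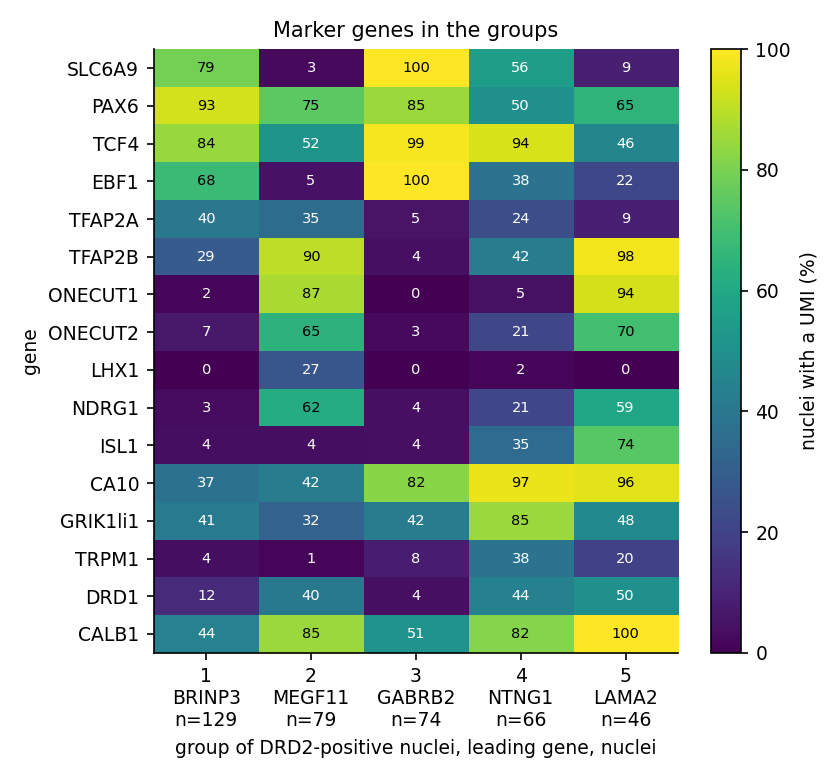
Share of nuclei with a UMI (%, colour and printed value) of 16 marker genes in the 5 groups of DRD2-positive nuclei, with each group's leading gene and number of nuclei. EBF1 and SLC6A9 are most frequent in groups 1 and 3, ONECUT1 and TFAP2B in groups 2 and 5, and CA10 with GRIK1li1 in group 4, while PAX6 and TCF4 are found in 45.7% or more of the nuclei of each group.

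DRD2 counts clustered in few kinds of AC-like nuclei. When all 19532 AC-like nuclei were grouped without the genes of the rule, 59 groups were found, and the median group had a DRD2 UMI in 1.83% of its nuclei. In 6 groups the share was above 20%, and these held 312 of the 394 DRD2-positive nuclei (79.2%) in 1688 AC-like nuclei (8.64%). The 6 groups were picked by DRD2, which also defines the DRD2-positive nuclei, so that they held most of these is no separate result. In 32 groups it was under 2%, and 31 groups held no DRD2-positive nucleus. Some AC-like groups carried markers of other classes. CA10 was found in 99.5% of the 953 nuclei of the group led by COL19A1 and in 98.5% of the 874 nuclei of that led by PTPRQ. A group of 741 nuclei was led by the Müller gene WIF1. SLC6A9 was found in 55.8%, 54.3% and 59.5% of these groups in turn, so the glycinergic nuclei used below may include such nuclei. Group 5 above lay whole in the group led by LAMA2 and PMFBP1 (60.4% with a DRD2 UMI, 31.1% after thinning, 241 CPM). Of group 1, 69 nuclei lay in the group led by MAN2A1, LRRTM4, LAMA4 and EBF1, where 54.9% of 306 nuclei had a DRD2 UMI, 38% did after thinning, and DRD2 reached 323 CPM. Of group 3, 69 nuclei lay in the group led by MAN2A1, EBF1 and ITGB8 (49.1%, 32.9% after thinning, 267 CPM). Of group 2, 77 nuclei lay in the group led by THSD7B, TNR and ONECUT1 (44.6%, 25.8% after thinning, 195 CPM). Group 4 was spread over several AC-like groups, with 22 nuclei in the group led by NTNG1, SEMA3E and ERBB4 (29.1%, 19.1% after thinning, 137 CPM). These shares describe the nuclei from which the rule drew its members.

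**Figure D3:**
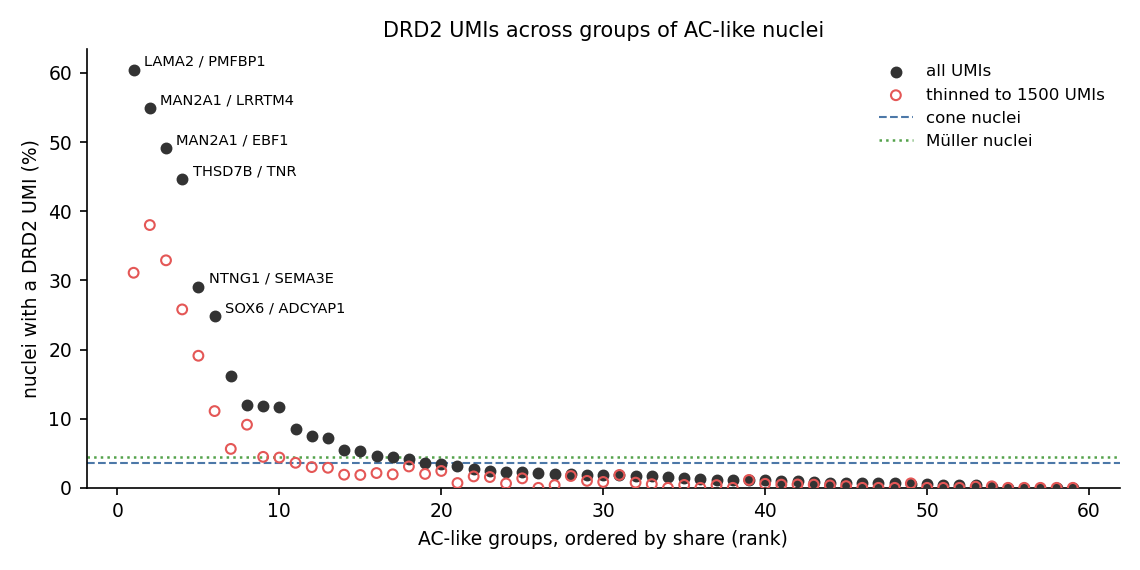
Share of nuclei with a DRD2 UMI (%) in the 59 groups of AC-like nuclei, ordered by that share, with all UMIs (filled) and after thinning to 1500 UMIs, without nuclei under that depth (open). The dashed and dotted lines give cone (3.65%) and Müller (4.44%) nuclei, and 6 groups lie above 20%.

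DRD2-positive nuclei were also set beside nuclei with 0 DRD2 UMIs of the same AC-like group, as sums per retina with the retina as a block (edgeR quasi-likelihood test, retinas with 3 or more of each). The groups were formed from the expression of these same nuclei, so likeness within a group was built in and is no result. In the THSD7B group, which held 80 DRD2-positive (median 5038 UMIs) and 267 DRD2-free nuclei (2432 UMIs), 76 and 197 nuclei of 11 retinas entered the fit. Of 1496 genes, 2 passed an adjusted p of 0.05 (0.134%): DRD2 itself, which the rule used, and CNTN5, a contactin adhesion gene, with a log2 fold change of -1.24 (SE 0.26, edgeR adjusted p = 0.025), while after thinning to 1500 UMIs DRD2 alone passed of 307 genes tested. In the MAN2A1, EBF1 and ITGB8 group (78 against 138 nuclei of 11 retinas), 1 of 593 genes passed (0.169%), DRD2. In the MAN2A1, LRRTM4, LAMA4 and EBF1 group (50 against 93 nuclei of 8 retinas), 1 of 708 passed (0.141%), again DRD2. At an unadjusted p under 0.05 there were 67, 23 and 36 genes (4.48%, 3.88% and 5.08%).

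Few DRD2-positive nuclei carried a gene for making dopamine. TH, tyrosine hydroxylase, was found in 2 of 394 nuclei (0.508%) and GCH1, which makes its cofactor, in 4 (1.02%). In AC-like nuclei, at their lower depth, the shares were 0.0973% for TH and 0.0768% for GCH1, in glycinergic nuclei without DRD2 (median 2392 UMIs) 0% and 0.079%, and in cone nuclei 0.0943% and 0.0328%. The shares in DRD2-positive nuclei rest on 2 and 4 nuclei, at higher depth, and were not tested against these. DDC, which makes dopamine from L-DOPA, and SLC6A3, the dopamine transporter, were found in 0 of 394 nuclei, which allows a share of up to 0.761% of nuclei with a UMI. SLC6A3 and the D5 receptor gene DRD5 had 0 UMIs in all 119765 nuclei, so their absence here says nothing particular. SLC18A2, the vesicular monoamine transporter, was found in 6 nuclei (1.52%), against 3.04% of cone nuclei (median 3705 UMIs) and 1.2% of AC-like nuclei. Its level was 6.46 CPM in DRD2-positive, 7.1 CPM in cone and 4.41 CPM in AC-like nuclei, and whether these counts are background was not tested. Conversely, of 21 nuclei with 2 or more TH UMIs in the whole series (median 8616 UMIs), 7 had a DRD2 UMI and 1 was among the 394. A DRD2 UMI was found in 4.89% of all nuclei, at a median of 2917 UMIs, and the difference was not tested. The D1 receptor gene DRD1 was found in 103 of 394 nuclei (26.1%), against 20.1% of AC-like nuclei, 13.9% of glycinergic nuclei without DRD2 and 11.3% of cones. Per UMI the DRD2-positive nuclei were not above AC-like nuclei, since DRD1 was measured at 81.3 CPM in them (median 5136.5 UMIs), 82.7 CPM in AC-like nuclei (median 2965 UMIs), 64.7 CPM in glycinergic nuclei without DRD2, 38.5 CPM in cones and 82 CPM in all nuclei. By group, DRD1 was found in 12.4% of group 1 (33 CPM), 4.05% of group 3 (8.06 CPM), 40.5% of group 2 (138 CPM), 43.9% of group 4 (133 CPM) and 50% of group 5 (121 CPM). Both its share and its level were higher in the groups with HC or BC markers, and its share in group 3 was below that of cones. The part of free RNA in these counts was not tested.

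Compared with glycinergic nuclei, the DRD2-positive nuclei were higher in the HC genes of groups 2 and 5, among many other genes. The reference required SLC6A9, which was found in only 2.53% and 8.7% of the nuclei of these groups. Higher genes of groups 2 and 5 were thus built into the choice of nuclei and are no result of their own. The reference was 3798 AC-like nuclei with 2 or more SLC6A9 UMIs and no DRD2 (median 2392 UMIs), and the test was edgeR on sums per retina with the retina as a block, in the 12 retinas with 10 or more DRD2-positive nuclei, which held 376 of the 394 and 3401 of the glycinergic nuclei. Of 9582 genes, 1918 passed (20%), 914 higher (9.54%) and 1004 lower (10.5%). OPRK1 was measured at 46.9, 132 and 517 CPM (lowest, median, highest retina) in DRD2-positive nuclei and at 0, 0 and 5.73 CPM in glycinergic nuclei, a log2 fold change of 6.48 (SE 0.29). TNR, the extracellular matrix gene tenascin-R, was measured at 1450, 2240 and 3890 CPM against 45.1, 111 and 204 CPM (log2 fold change 4.41). ONECUT1 was measured at 101, 188 and 391 CPM against 2.29, 7.33 and 30 CPM (log2 fold change 4.47). For these 3 genes no DRD2-positive value overlapped the glycinergic ones, as for 1.01% of all genes in this direction. All 5 HC genes tested were higher, with a median log2 fold change of 3.96 against -0.07 over all genes, among them LHX1 (4.89) and ONECUT2 (3.96). Of 5 starburst AC genes tested 3 were higher (median 1.32), of 4 ganglion cell genes 2 (median 0.83), and of 61 transcription factor genes 17 were higher and 18 lower. The starburst list holds MEGF10 and MEGF11, leading genes of group 2, and shares ISL1, frequent in group 5, with the ganglion cell list. Other lists went down: of 8 general AC genes 0 were higher and 4 lower (median -0.58), and of 8 Müller genes 0 and 4 (median -0.49). Of 3 astrocyte genes 1 was higher and 2 lower (median -1.6). HC genes summed to 530 to 1280 CPM in the DRD2-positive nuclei of these retinas and to 158 to 296 CPM in glycinergic nuclei. DRD1 was also higher (log2 fold change 0.56, SE 0.16, edgeR adjusted p = 0.0077). When the comparison was limited to DRD2-positive nuclei with 2 or more SLC6A9 UMIs, 185 of the 914 genes remained higher (20.2%) and 51 were lower, and THSD7B (1.13), TRPC4 (1.44), STAC (1.24), ONECUT1 (0.45), ONECUT2 (1.42) and B3GAT2 (0.99) no longer passed. In that limited comparison 0 of 5 starburst genes tested were higher and 1 was lower, and neither of 2 ganglion cell genes passed.

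That limited comparison, chosen after seeing the groups, set 142 DRD2-positive nuclei with 2 or more SLC6A9 UMIs (median 3899 UMIs) beside the same glycinergic nuclei in 13 retinas with at least 5 of them, which held 139 and 3528 nuclei, so that both sides met the same SLC6A9 criterion. Of 8197 genes, 1029 passed (12.6%), 276 higher (3.37%) and 753 lower (9.19%). That balance depended on the scaling: the median of all genes was -0.25 on the log2 scale with TMM factors and -0.05 with RLE factors, where 365 genes were higher and 418 lower, and DESeq2 gave 375 higher and 329 lower. Thinning to 1500 UMIs moved it the other way, to 128 higher and 658 lower of 4109 genes (median of all genes -0.41). The genes named next passed with TMM and RLE factors and with DESeq2 unless stated. HC genes summed to 234 to 556 CPM in these nuclei and to 158 to 296 CPM in the glycinergic nuclei, with partly overlapping ranges, and ONECUT1 was found in 3.52% of them.

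The higher genes were led by those of groups 1 and 3. EBF1, a transcription factor of the early B cell factor family, was measured at 999, 2040 and 3400 CPM (lowest, median, highest retina) against 221, 455 and 735 CPM, a log2 fold change of 1.87 (SE 0.16). MAN2A1, a Golgi mannosidase that trims N-glycans, was measured at 219, 723 and 1250 CPM against 44.1, 87.2 and 111 CPM (2.81, SE 0.2). SERPINE2, a secreted serine protease inhibitor, was measured at 81.4, 124 and 434 CPM against 1.38, 19.7 and 48.2 CPM (2.92, SE 0.26). CAMK2A, the alpha subunit of calcium/calmodulin-dependent kinase II, was measured at 82.3, 200 and 398 CPM against 15.9, 29.5 and 59.6 CPM (2.51, SE 0.23). In none of these 4 genes did the ranges overlap, as in 0.22% of all genes in this direction, and each was higher in 13 of 13 retinas. EBF1 was not particular to DRD2-positive nuclei. Among other SLC6A9-rich AC-like groups, it was found in 79.5% (led by PROM1), 95.1% (EBF3 and COL27A1) and 80.8% (EBF2) of nuclei. A DRD2 UMI was found in 0.76%, 2.33% and 0.699% of these. Some SLC6A9-rich groups had little EBF1, such as 6.43% in the group led by CCBE1. The glycosyltransferase gene GALNT14 (2.85), C14ORF132 (2.77), MCF2L2 (2.76), PGM5 (2.74), the laminin gene LAMA4 (2.68), NELL1 (2.5), the semaphorin receptor gene NRP2 (2.22), LDB2 (2.14), FAM107B (2.07), the postsynaptic scaffold gene DLGAP2 (1.97) and SPOCK2 (1.94) were higher in at least 12 of 13 retinas.

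The lower genes included a second set of transcription factors. EBF3, a paralogue of EBF1, was measured at 0, 27.1 and 73.4 CPM against 138, 184 and 263 CPM, a log2 fold change of -2.91 (SE 0.3). ZNF423, a zinc finger protein that binds EBF factors, was measured at 0, 53.7 and 110 CPM against 178, 310 and 494 CPM (-2.89, SE 0.26). NFIX was measured at 0, 0 and 54.3 CPM against 74.9, 103 and 171 CPM (-3.22, SE 0.39). HS6ST3, a heparan sulfate sulfotransferase, was the most abundant gene of this set, at 0, 438 and 1170 CPM against 2340, 3060 and 4720 CPM (-3.04, SE 0.19). Ranges did not overlap for these 4 genes, as for 0.354% of all genes in this direction. MAF (-3.49), the GABA-A subunit gene GABRG3 (-3.48), SCML4 (-3.1) and RPH3A (-2.96) were also lower, each lower in at least 12 of 13 retinas. MECOM had 0 UMIs in the DRD2-positive nuclei and 1901 in the glycinergic nuclei, at least 36.7-fold lower against a floor of 3 counts over the group. Of these 1901 UMIs, 1344 came from Mature retina 4, without which it was at least 11.4-fold lower, and MECOM did not pass with DESeq2 (adjusted p = 0.19). ABI3BP (-4.25) also had its highest glycinergic value, 1780 CPM, in that retina.

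**Figure D4:**
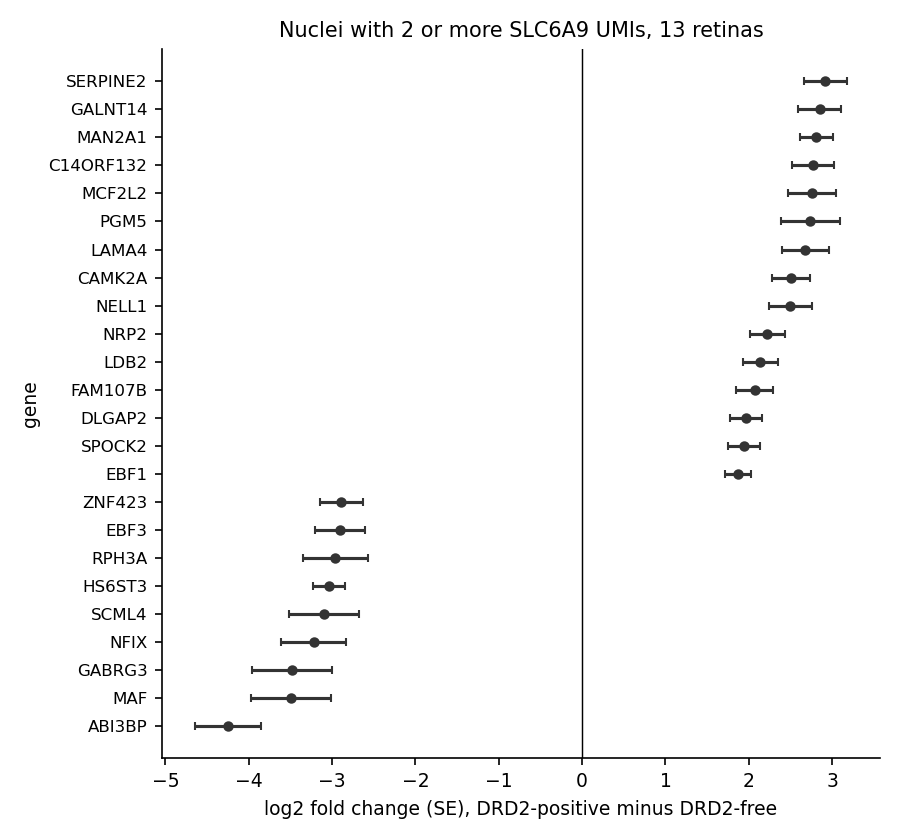
Log2 fold changes with SE (edgeR, 13 retinas) of the named genes between DRD2-positive and DRD2-free nuclei, both with 2 or more SLC6A9 UMIs. SERPINE2 (2.92), GALNT14 (2.85) and MAN2A1 (2.81) lie highest and ABI3BP (-4.25) lowest, and MECOM, at 0 UMIs in the DRD2-positive nuclei, is not drawn.

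The gene lists were read as counts beside the 3.37% of genes higher and 9.19% lower over all genes. Of 26 tested genes of D2 receptor signalling, 1 was higher, CAMK2A, and 5 were lower. PDE4B, a phosphodiesterase that degrades cyclic AMP, was measured at 207 ± 202 CPM against 888 ± 149 CPM (SD, n = 13), a log2 fold change of -2.38 (SE 0.24). PDE10A (-1.26) and RGS8, a regulator of G protein signalling (-0.96), were lower under each scaling, while KCNJ3 (-0.64) and GNAO1 (-0.52), a G protein-gated potassium channel subunit and a G protein alpha subunit, did not pass with RLE factors, where 3 genes of the list were higher and 3 lower.

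For transmitter receptors, 15 GABA receptor genes gave 2 higher and 5 lower, and with RLE factors 3 and 4. GABRB2 was measured at 876 ± 371 CPM against 388 ± 94.4 CPM (log2 fold change 0.88, SE 0.17), and GABRG1 (-1.84) and GABRA4 (-1.53) were lower. GABRG1 no longer passed after thinning to 1500 UMIs (-0.94, edgeR adjusted p = 0.18), where GABRA4 was not tested. Of 6 metabotropic glutamate receptor genes, GRM5 was higher in 13 of 13 retinas (759 ± 345 against 191 ± 63.5 CPM, log2 fold change 1.71, SE 0.18) and 3 were lower, GRM7 (-1.33) among them. Of 13 ionotropic glutamate receptor genes, 0 were higher and 4 lower, among them GRIN2A (-1.09) and GRIK2 (-0.93). The glycine receptor subunit gene GLRA1 was measured at 169 ± 96.3 against 274 ± 66.5 CPM (-0.88, SE 0.2, edgeR adjusted p = 0.00043). Of 12 neuropeptide and monoamine receptor genes, the muscarinic receptor gene CHRM2 was higher (1.3, SE 0.29), and the nicotinic subunit gene CHRNA6 (-1.81) and the VIP receptor gene VIPR1 (-3.25) were among 4 that were lower.

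Of 52 transcription factor genes, 7 were higher and 23 lower, and with RLE factors 9 and 17. Beside EBF1, ZNF385D (1.5), CUX2 (1.38), BCL11A (1.23) and SOX5 (0.94) were higher, and NR3C1, the glucocorticoid receptor (-2.51), ZEB2 (-1.92), NFIA (-1.53) and NFIB (-1.53) were lower. PAX6 was measured at 644 ± 176 against 596 ± 57.9 CPM and TCF4 at 1730 ± 436 against 1590 ± 238 CPM, and neither passed (edgeR adjusted p = 0.69 and 0.55). The list of general AC genes, which includes PAX6, was lower here. Among its 7 tested genes 0 were higher and 4 lower, and with RLE factors 0 and 3. Its median log2 fold change was -1.17 against -0.25 over all genes. Of 9 calcium-binding protein genes, CALB1 was higher (225 ± 117 against 72.3 ± 23.1 CPM, log2 fold change 1.54) and 5 were lower, against 2 and 3 with RLE factors, with CALB2, calretinin, at 20.7 ± 21.2 against 81.8 ± 28.2 CPM (-1.93). Of 29 potassium channel genes, 3 were higher and 9 lower, and with RLE factors 3 and 6: KCNIP4, an A-type channel-interacting protein, was measured at 4050 ± 2090 against 1070 ± 362 CPM (1.59) and KCND2, an A-type channel, at 1600 ± 743 against 501 ± 245 CPM (1.48), while KCNQ5 (-2.88) and KCNH8 (-1.85) were lower. For 83 genes of lamination and adhesion the direction turned with the scaling, 13 higher and 27 lower with TMM factors but 20 and 14 with RLE factors. LRRTM4, a postsynaptic adhesion protein, was higher under each (5870 ± 3440 against 1230 ± 331 CPM, log2 fold change 1.85). Of 7 neuropeptide genes 0 were higher and 4 lower, and NPY had 0 UMIs against 547, at least 10.6-fold lower. Of 2 tested genes of dopamine synthesis and receptors, neither passed: DRD1 was measured at 47.7 ± 31.4 against 63.3 ± 20.9 CPM (edgeR adjusted p = 0.14).

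VGluT3 ACs release glutamate beside glycine and were taken as 1046 nuclei with 2 or more UMIs of SLC17A8, which the rule bars from the DRD2-positive nuclei. Against them, 2152 of 6527 genes passed for the 376 DRD2-positive nuclei of 12 retinas (33%, 14.3% higher and 18.7% lower). For the 139 nuclei with 2 or more SLC6A9 UMIs, 1022 of 4476 passed (22.8%), 411 higher (9.18%) and 611 lower (13.7%), in 13 retinas. MAN2A1 was measured at 705 ± 328 against 38.9 ± 17.7 CPM (log2 fold change 4.13), EBF1 at 2040 ± 686 against 140 ± 70.9 CPM (3.87), and SERPINE2 at 164 ± 103 against 5.44 ± 6.17 CPM (4.63), and each was higher in 13 of 13 retinas. The same DRD2-positive nuclei enter both comparisons. The neurexophilin gene NXPH1 was measured at 62 ± 146 against 5450 ± 1460 CPM (-6.89), the sarcoglycan gene SGCZ at 267 ± 238 against 11800 ± 3130 CPM (-5.63) and the transcription factor gene BNC2 at 14.2 ± 23.7 against 475 ± 157 CPM (-5.34). GAD1 was found at 1 or more UMIs in 294 AC-like nuclei. The GABAergic class required 2 or more UMIs of GAD1 and GAD2 together and no UMI of SLC6A9 or DRD2. It held only 5 nuclei, so no GABAergic comparison could be run.

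The share of DRD2-positive nuclei was compared between the 3 stages over retinas. Among AC-like nuclei it was 1.83%, 1.43%, 0.697%, 3% and 2.67% in Infancy retinas 1 to 5, 2.05%, 2.42%, 3.36%, 1.94% and 6.42% in Mature retinas 1 to 5, and 1.06%, 0.596%, 1.37%, 0.178% and 3.29% in Senile retinas 1 to 5. Mature retina 5 was highest and Senile retina 4, with 2 DRD2-positive nuclei (exact 95% interval 0.0216% to 0.643%), lowest, and the stages overlapped. The intervals cover counting error only. Means were 1.92% ± 0.931 in Infancy, 3.24% ± 1.86 in Mature and 1.3% ± 1.2 in Senile retinas (SD, n = 5 each), and no pair differed beyond the spread. The Mature minus Infancy difference was 1.31 percentage points (exact permutation test, two-sided, adjusted p = 0.286), the Senile minus Infancy difference -0.623 (exact permutation test, adjusted p = 0.373) and the Senile minus Mature difference -1.94 (exact permutation test, adjusted p = 0.19, where 5 against 5 retinas cannot go below an unadjusted p of 0.00794). Leaving out single retinas moved these differences over 0.519 to 1.64, -1.12 (without Senile retina 5) to -0.343 (without Senile retina 4) and -2.44 to -1.14 (without Mature retina 5), and none passed at an adjusted p of 0.05. Among all nuclei the means were 0.328% ± 0.141, 0.556% ± 0.381 and 0.17% ± 0.135, and the Senile minus Mature difference of -0.386 did not pass either (exact permutation test over 5 retinas each, adjusted p = 0.0952) and was -0.218 without Mature retina 5. It passed with DRD2 at 1 or more UMIs and with SLC6A9-carrying members, but not with DRD2 at 3 or more UMIs, without doublets or after thinning.

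These shares changed when the counts were thinned, and the part of depth alone was not tested. The median UMIs per nucleus ran from 1461 in Senile retina 2 to 5589 in Mature retina 5, the retina with the highest share. Thinning to 1500 UMIs left out the nuclei under that depth, unevenly between retinas: 564 of 1175 AC-like nuclei remained in Senile retina 2, 1339 of 1864 in Infancy retina 3 and 805 of 810 in Mature retina 5. Both the DRD2-positive and the AC-like nuclei were then chosen anew by the rule on the thinned counts. The mean shares were 0.668% ± 0.356, 0.629% ± 0.439 and 0.357% ± 0.304 of AC-like nuclei (SD, n = 5). The Mature minus Infancy difference turned to -0.0383 percentage points. Lower depth and the new choice of nuclei cannot be told apart in this change. Within the retinas labelled with Cell Ranger 5.0.1 the mean shares were 1.32% (3 Infancy retinas), 2.23% (2 Mature) and 0.828% (2 Senile), and within those labelled 7.0.1 they were 2.83% (2), 3.91% (3) and 1.61% (3). The molecule label followed the same split, polyA RNA for the retinas labelled 5.0.1 and total RNA for those labelled 7.0.1, so that version and molecule label cannot be told apart, here or as a term in a fit. Neither was separated from depth.

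**Figure D5:**
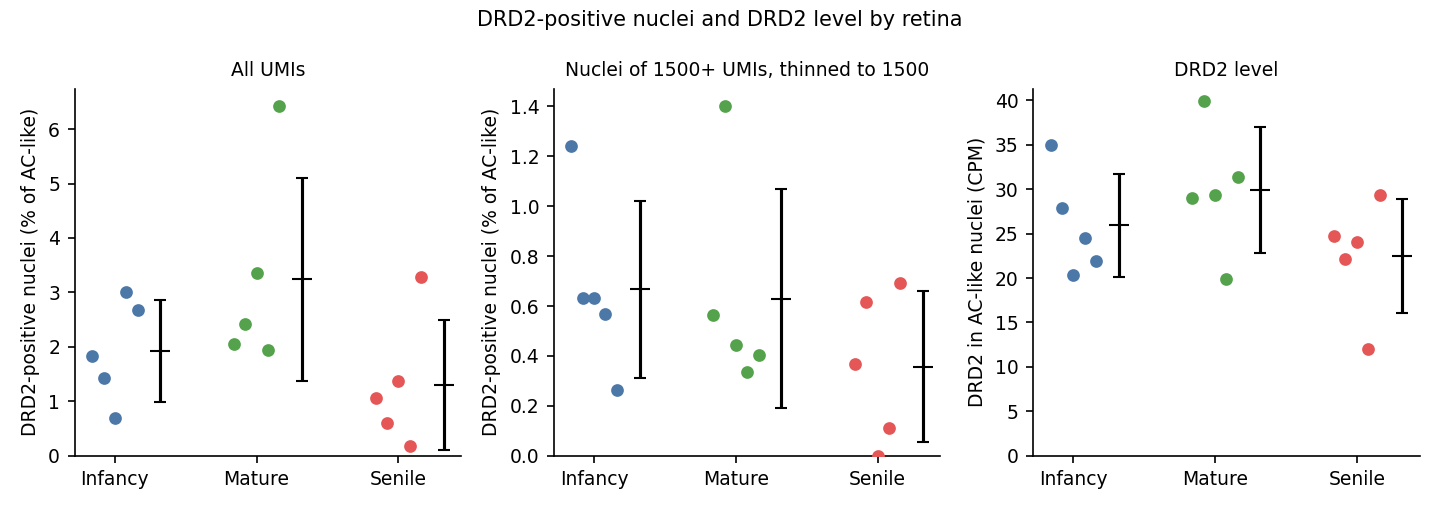
Share of DRD2-positive nuclei among AC-like nuclei (%) with all UMIs (left) and after thinning to 1500 UMIs, without nuclei under that depth (middle), and DRD2 level in AC-like nuclei (CPM, right), 1 point per retina with the mean and SD beside each stage. The stages overlap in each panel. The Mature mean is 3.24% with all UMIs and 0.629% on thinned counts, on which both kinds of nuclei were chosen anew.

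The DRD2 level of all AC-like nuclei, which does not depend on the threshold, was 35, 27.9, 20.4, 24.5 and 21.9 CPM in Infancy retinas 1 to 5, 29, 39.9, 29.4, 19.9 and 31.4 CPM in Mature retinas and 24.7, 22.1, 24.1, 12 and 29.4 CPM in Senile retinas. Mature retina 2 was highest, Senile retina 4 lowest, and the stages overlapped. DRD2 did not pass in any pair (edgeR, 17945 genes tested, of which 0.24%, 0.758% and 0.00557% passed in the order that follows). The log2 fold change was 0.15 for Mature minus Infancy (SE 0.24, 95% interval -0.32 to 0.62), -0.32 for Senile minus Infancy (SE 0.25, -0.81 to 0.17) and -0.48 for Senile minus Mature (SE 0.25, -0.97 to 0.01). In bulk sums such as these, fewer DRD2-expressing nuclei and less DRD2 RNA per nucleus cannot be told apart.

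Between stages, 1 gene differed past the test in the DRD2-positive nuclei, a count that depended on the terms of the fit. Sums of the 12 retinas with 10 or more DRD2-positive nuclei (5 Infancy, 5 Mature, 2 Senile) were fitted with edgeR. Of 4445 genes, 1 passed in Mature minus Infancy (0.0225%), 1 in Senile minus Infancy (0.0225%) and 0 in Senile minus Mature (0%, and 4 with DESeq2), with 179, 240 and 218 genes at an unadjusted p under 0.05. With replicate numbers as a block 8, 8 and 0 genes passed, and with the Cell Ranger version as a term 5, 7 and 1. The gene was MIA3li3 each time, a numbered copy annotated beside MIA3, which takes part in the export of large cargo such as collagen from the endoplasmic reticulum. Numbered copies can share reads with their namesake, so its identity is uncertain. In the DRD2-positive nuclei it was measured at 12.6, 21.5, 34.4, 8.4 and 8.68 CPM in Infancy retinas 1 to 5 (1 or 2 UMIs each), at 161, 175, 227, 187 and 131 CPM in Mature retinas 1 to 5, and at 127 and 253 CPM in Senile retinas 1 and 5. Senile retinas 2 to 4, left out of the fit for their few nuclei, had 215, 184 and 71.7 CPM. Every Mature and Senile value lay above every Infancy value. Stages did not overlap in 0.9% of all genes for Infancy and Mature and in 10% for Infancy and the 2 Senile retinas. The log2 fold change was 3.73 for Mature minus Infancy (SE 0.4, edgeR adjusted p = 0.00021) and 3.89 for Senile minus Infancy (SE 0.46, edgeR adjusted p = 0.00082). Without Senile retina 5, Senile retina 1 stood alone for its stage, assumed to vary like the retinas of the other stages, and the log2 fold change was 3.09 (SE 0.65, edgeR adjusted p = 0.39), so that 0 genes passed.

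MIA3li3 rose in all AC-like nuclei too, from 25.8 to 41.4 CPM in Infancy retinas to 122 to 151 CPM in Mature and 131 to 227 CPM in Senile retinas (log2 fold change 2.07, SE 0.18, edgeR adjusted p = 6.3e-05, and 2.41, SE 0.19, edgeR adjusted p = 5.6e-06). The Senile minus Infancy change was not shown to differ between DRD2-positive and glycinergic nuclei (difference 0.73 on the log2 scale, SE 0.58, edgeR adjusted p = 1), and 0 of 9582 genes passed that interaction test (0%, with 427 at an unadjusted p under 0.05). Leaving aside numbered copies and antisense or unnamed transcripts, some of which had a smaller p, HS6ST3 was the gene of smallest p in Senile minus Infancy: it was measured at 366, 182, 241, 218 and 221 CPM in Infancy retinas, 606, 444, 696, 457 and 305 CPM in Mature retinas and 839 and 514 CPM in the 2 Senile retinas, with log2 fold changes of 1.04 (Mature minus Infancy, edgeR adjusted p = 0.4) and 1.35 (Senile minus Infancy, edgeR adjusted p = 0.34). The lens crystallin gene CRYGC was measured at 1460 CPM in Infancy retina 4, 300 CPM in Infancy retina 5 and 23.4 CPM in Mature retina 4 and at 0 in the other 9 retinas. No gene of any list passed between stages. These sums rest on 13 to 52 DRD2-positive nuclei per retina, and what size of stage difference they could show was not tested.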

How the data were processed

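The authors aligned the reads of droplet-based 3' libraries to a TS genome with Cell Ranger and deposited 1 filtered matrix of raw UMI counts per retina. The version is 5.0.1 (7 retinas) or 7.0.1 (8) per the labels, and 6.1.2 or 7.0.1 per the file headers. The matrices held 120437 barcodes (4269 to 9856 per retina, 13429873 to 58734300 UMIs) and 83605 features, 3 of them mitochondrial, and at most 30 barcodes were shared by a pair of libraries. Nuclei were filtered and chosen as stated above. The members, gene lists and comparisons were chosen with earlier results of these data known.

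UMIs were summed per retina and class and tested with edgeR 4.0.16 (quasi-likelihood, TMM, filterByExpr, Benjamini-Hochberg over all genes tested, threshold 0.05), with DESeq2 1.42.0 as an alternative, in R 4.3.3. Classes of the same retinas were compared with the retina as a block, in retinas with at least 10 nuclei of each class (5 for SLC6A9-limited nuclei, 3 within AC-like groups). CPM given with ± are means and SD over retinas. CPM of the groups of nuclei, and of whole classes given as a single value, come from UMIs pooled over all their nuclei. In these, retinas with more UMIs weigh more. Shares were compared by exact permutation of retinas (SciPy 1.17.1), adjusted over 3 pairs of stages, with exact binomial intervals of 95%. On counts simulated for the glycinergic comparison (9422 genes), the test recovered 68% of 100 genes with a log2 change of 1 and 98.8% of 83 genes with 2, with 4.46% false calls. The simulation gave all genes the same dispersion and changed few of them, so these rates need not hold for the real nuclei. Groups were found with the Leiden method (leidenalg 0.10.2; 1500 variable genes, 20 components, 15 neighbours, resolution 0.5; for AC-like nuclei 2500, 40, 20 and 1.5). Doublets, called from simulated doublets, were kept (7.87% of members, 6.63% of all nuclei) and left out as an alternative.

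Named genes were, per comparison of classes, up to 15 higher and 10 lower genes by fold change past the threshold, with the same sign in all but 1 retinas and at least 50 CPM in the higher class, and per stage comparison those past it without overlap and at 20 CPM or more, or else those of smallest p. Of each gene list, up to 4 genes past the threshold by fold change were to be named, and further list genes were chosen after their values were seen, as were the marker shares given for the groups. Genes of the rule and numbered copies were not named, MIA3li3 and GRIK1li1 excepted. The remaining alternatives were other scaling, no filter on low counts, thinning to 1500 UMIs (nuclei under 1500 left out), version or the sex listed by the study as covariates, replicate numbers as a block, DRD2 at 1 UMI, and leaving out each retina. Genomic coordinates and sequences were not used here. Results that need items withheld for evaluation are not reported here.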

Additional observations from a re-analysis of the deposited data

Results flagged for a closer look

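In 27 sets of 5 retinas, the highest and lowest retina were each examined for a gap to the others that was wide for the range of the set. A criterion of this kind marks about 1 in 20 sets by chance. In Mature retina 5, DRD2-positive nuclei made up 1.23% of all nuclei passing the limits, against 0.337% to 0.485% in the other 4 Mature retinas (gap over range 0.834). That retina also had the highest median depth, 5589 UMIs per nucleus, and the part of depth in this value was not tested for the single retina. In Senile retina 4, the DRD2 level of glycinergic nuclei was 19 CPM, against 50.5 to 58.5 CPM in the other 4 Senile retinas (gap over range 0.797). This value rests on 5 DRD2 UMIs in 66 nuclei. The share of these nuclei with a DRD2 UMI was 7.58%, within the 6.28% to 14.5% of the other 4 Senile retinas. The same retina held 2 DRD2-positive nuclei, the fewest of the 15.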

How the results depend on the processing

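Alternatives on SLC6A9-limited nuclei and the minimum of 5 nuclei were chosen after seeing the data. No pair of stages passed in the share of DRD2-positive nuclei, except among all nuclei in the settings that follow. With DRD2 at 1 or more UMIs, Senile minus Infancy was -0.398 and Senile minus Mature -0.625 percentage points (exact permutation test, adjusted p = 0.0357 each). With SLC6A9-carrying members, Senile minus Mature was -0.234 (exact permutation test, adjusted p = 0.0238), and those stages did not overlap. Among AC-like nuclei the same members gave -1.16 (exact permutation test, adjusted p = 0.143). With members chosen anew on counts thinned to 1500 UMIs, Mature minus Infancy turned to -0.00992 among all nuclei and -0.0383 among AC-like nuclei. Leaving out single retinas moved it over 0.0604 to 0.283 and 0.519 to 1.64, and the log2 change of DRD2 in AC-like nuclei over -0.01 (without Mature replicate 2) to 0.30.

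Genes differing between stages in DRD2-positive nuclei (Mature minus Infancy, Senile minus Infancy, Senile minus Mature) numbered 38, 41 and 16 with no filter on low counts, and 5, 7 and 1 with Cell Ranger version in the fit. Sex as the study lists it, taken as a covariate, gave 6 and 4 for the first pairs. The labels give no sex, and earlier results of these data found Y-linked RNA against the listed sex in most retinas. DESeq2 gave 11 and 4 for the last pairs, and Senile minus Infancy gave 3 in retinas with 5 or more members and 0 in members with SLC6A9. Leaving out each retina gave 1 to 3, 0 to 2 (0 without Senile replicate 5, which leaves 1 Senile retina) and 0 to 0. The stage interaction gave 5 genes with no filter and 0 to 2 without single retinas. The cause of these moves was not tested.

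Replicate numbers were not taken as pairing: 13 of 15 same-numbered pairs had a correlation of deviations over 0.1 (-0.45 to 0.69, median 0.41 against -0.27 for other pairs), and 6 of 15 retinas correlated best with their own number. Most same-numbered retinas also shared the Cell Ranger version and the molecule label. Replicate number and that split therefore cannot be told apart in these correlations. With the replicate block, 8 genes passed in each of Mature minus Infancy and Senile minus Infancy. Without the retina block, calls against glycinergic nuclei fell to 978 (SLC6A9-limited, 473) and against VGluT3 nuclei to 1120.

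Thinned, where fewer genes were tested, 905 and 1032 genes passed against glycinergic and VGluT3 nuclei and 1 in the THSD7B group. SLC6A9-limited nuclei gave 1029 and 1022. The SLC6A9-limited count ran from 858 to 1209 without single retinas. All other settings kept total counts within 1.5 times, but not their balance: the SLC6A9-limited split of 276 higher and 753 lower was 375 and 329 with DESeq2, 365 and 418 with RLE factors, 128 and 658 thinned and 223 and 1317 with no filter, and DESeq2 turned 914 and 1004 against glycinergic nuclei to 884 and 846 and 932 and 1220 against VGluT3 nuclei to 963 and 943. The comparison with nuclei of 2 or more GAD1 and GAD2 UMIs could not be run, for 5 nuclei. Of the members, 65.5% had exactly 2 DRD2 UMIs, and the part of depth in the shares was not tested.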
